A study of Mus musculus with 11 samples.

Results

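Epigenetic modifier genes encode the enzymes and complexes that write, erase and read chemical marks on histones and DNA or that move nucleosomes, and 41 of them were examined here in T-cells of a mouse model of T-cell prolymphocytic leukemia. Members were chosen by gene symbol, as the rows of a whole-transcript microarray table whose only annotated symbol was one of these genes. All 41 were found among the 19937 genes of the table, of which 16 act in histone methylation, 12 in histone acetylation, 6 in DNA methylation and 7 in remodeling.

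The RNA was from spleen T-cells, and 11 arrays of the Mouse Gene 1.0 ST type were run. The exponential phase (5 arrays) came from Lckpr-TCL1A+/- mice of 15 months on average, with over 80% tumor cells in peripheral blood, over 90% in spleen and a lymphocyte doubling time of 12 days (SEM 0.8). The chronic phase (3 arrays) came from Lckpr-TCL1A+/- mice of 12 months on average, with 30 to 70% tumor cells. Wild-type arrays (3) came from age-matched C57BL/6 mice, each a pool of 3 animals and 9 animals in all. In the leukemia model the proximal Lck promoter drives human TCL1A in the T-lineage from the thymus on. By the labels, leukemia RNA was from CD8-enriched T-cells and wild-type RNA from pan-CD3+ T-cells, so the transgene and the cell selection cannot be told apart in any comparison with wild type. The labels do not say if a leukemia array stands for 1 mouse, so the p-values refer to the spread among arrays, which may be technical.

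Methyl groups on histone H3 can mark active or silent chromatin, depending on the residue. Enzymes of the Kmt2 family set a mark of active promoters and enhancers, and the Polycomb repressive complex PRC2, built on Ezh1 or Ezh2 with Eed and Suz12, sets a mark of silent genes. Acetyltransferases such as Crebbp and Ep300 open chromatin and the histone deacetylases (Hdac) reverse their work. Dnmt enzymes methylate cytosines in DNA, the Tet enzymes oxidize that methyl group, and SWI/SNF and Chd proteins use ATP to move nucleosomes. In T-cells these enzymes set which lineage genes stay on or off, and several of them are recurrently mutated in lymphoid and myeloid malignancies.

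Exponential replicate 4 went against its CD8 label. Cd8a read 2.96 there, against 7.94 to 8.20 on the other exponential arrays, 6.71 to 8.12 on the chronic arrays and 6.16 to 8.31 on the wild-type arrays (log2 values, as all levels here unless said otherwise). Cd4 read 5.18 on that array, against 2.15 to 2.44 on the other exponential arrays, 1.79 to 2.59 on the chronic arrays and 4.21 to 4.62 on the wild-type arrays. The same array had the highest median over 38 cell-cycle genes, 5.35, against 3.32 to 3.57 on the other exponential arrays, 3.53 to 4.68 in chronic and 3.26 to 3.60 in wild type. Linear values summed over 11 CD4 T-cell markers came to 93.9 to 401 in exponential and 85.7 to 214 in chronic arrays, against 1339 to 1996 in wild type, and 10 of these markers in exponential and 11 in chronic arrays averaged below wild type. Most of the wild-type sum was Ctla4, at 9.62 to 10.4, against 3.85 to 7.57 in exponential and 4.77 to 6.29 in chronic arrays. The median over the 11 markers was 2.38 to 3.38 in exponential, 2.03 to 2.67 in chronic and 3.94 to 4.52 in wild-type arrays. Over 15 myeloid markers the sum was 139 to 917 in exponential, 77.3 to 92.1 in chronic and 77.7 to 89.0 in wild-type arrays, highest on exponential replicate 4. Over 13 erythroid markers it was 69.3 to 162 in exponential, 65.9 to 899 in chronic and 472 to 1090 in wild-type arrays, and over 11 B-cell markers 93.6 to 436 in exponential, 62.7 to 197 in chronic and 80.4 to 196 in wild-type arrays. Most of the erythroid sum in wild type was Car1, at 8.53 to 9.79, against 1.82 to 5.29 in exponential and 2.27 to 9.27 in chronic arrays. The erythroid medians overlapped, at 2.35 to 2.95 in exponential, 2.27 to 2.92 in chronic and 2.84 to 2.91 in wild-type arrays. No detection calls were used, so no marker can be called absent, and the part of these other cells in the results that follow was not tested. In RNA of mixed cells, fewer cells of a type and less RNA per cell cannot be told apart.

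The first question was which of these genes differed from wild type in each leukemia phase. Calls required a fold of at least 1.5 and an adjusted p (limma, Benjamini-Hochberg over all 19937 genes) under 0.05. In exponential against wild type 0 of the 41 members were called, where 0.416% of all genes were, and without exponential replicate 4 the count was again 0, where 1.11% of all genes were called. In chronic against wild type 1 member was called, Tet1, which fell, where 0.456% of all genes were called. With all leukemia arrays as 1 group against the same wild-type arrays 1 member was called, Kmt2a, which fell, where 0.722% of all genes were called (1.37% without exponential replicate 4, when Kmt2a was still called). In exponential against chronic 0 members and 0% of all genes were called, although 6.25% of all genes had an unadjusted p under 0.05. The methods' t-test, at the same fold and adjusted p thresholds, called 0 members in each of the 4 comparisons. The authors listed mouse genes at a fold over 1.5 and p under 0.05, with no adjustment stated. That looser rule was not applied here.

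The unadjusted test gave more members below wild type than above it. At an unadjusted p under 0.05, 11 members were lower and 1 was higher in chronic arrays, where 4.8% of all genes were lower and 6.36% higher. In exponential arrays 4 members were lower and 2 higher, where 4.99% of all genes were lower and 4.79% higher. Without exponential replicate 4 these counts were 5 and 1, where 5.4% and 5.89% of all genes were lower and higher. In all leukemias 5 members were lower and 1 higher (5.1% and 5.47% of all genes), and without exponential replicate 4 the counts were 7 and 1 (5.52% and 6.1%). The chronic and exponential comparisons share their wild-type arrays and are given side by side, not as support for each other. The arrays of the 2 groups did not overlap for 10 members lower in chronic (7.52% of all genes) and for 1 higher (8.28%), for 2 members lower (3.5%) and 0 higher (3.28%) in exponential, and for 2 lower (1.65%) and 0 higher (1.67%) in all leukemias.

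**Figure D1:**
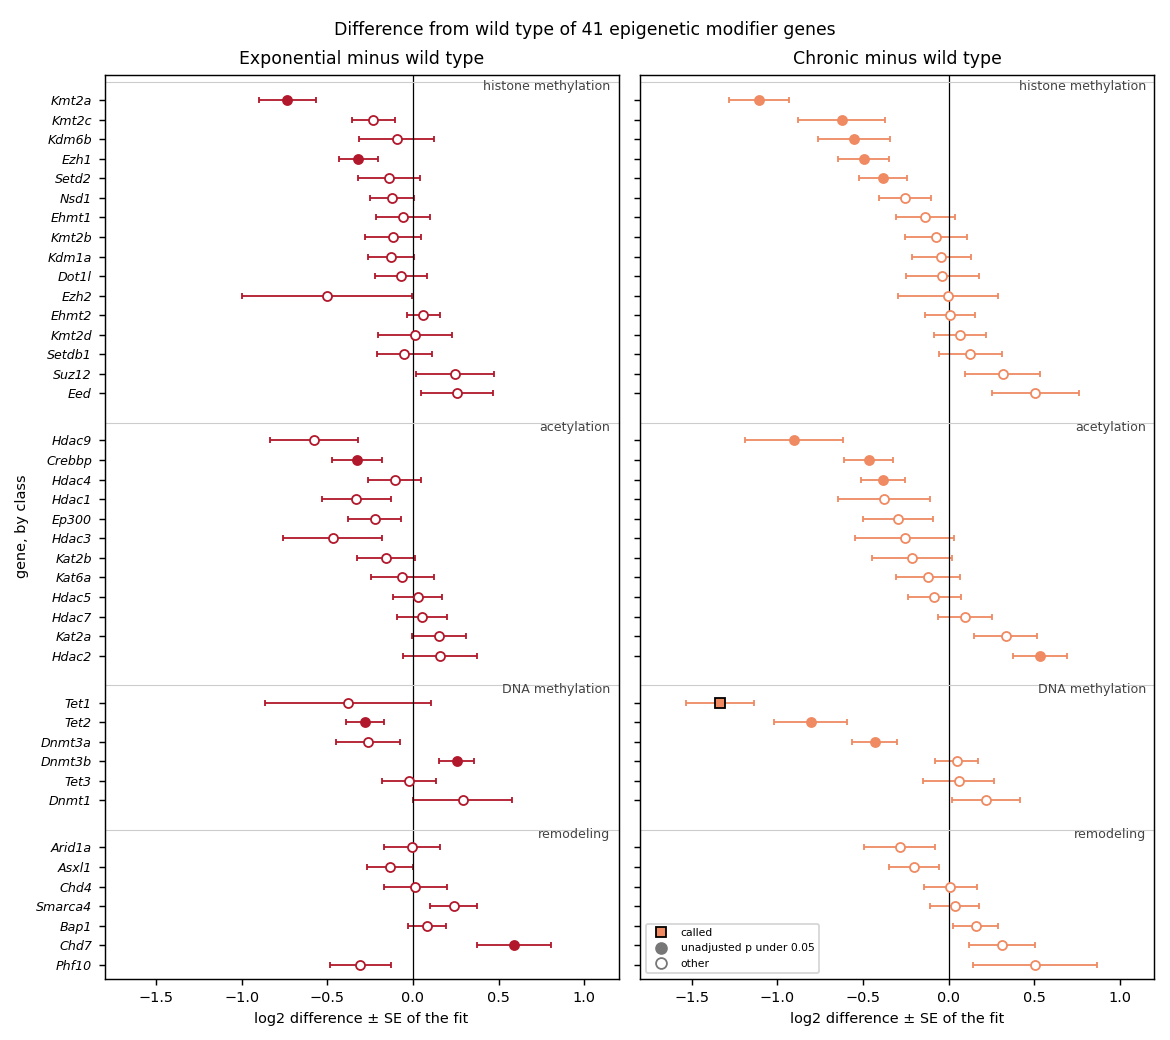
Log2 difference from wild type (± SE of the limma fit) of the 41 genes, by class, for exponential minus wild type (left) and chronic minus wild type (right). Filled circles have an unadjusted p under 0.05 and the outlined square, Tet1 at -1.34 in chronic, is called. Kmt2a, at -0.73 in exponential and -1.11 in chronic, lies farthest below 0 among the histone methylation genes.

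By class, the differences from wild type were small at the median. Histone methylation genes had a median log2 difference of -0.10 in exponential and -0.06 in chronic arrays, with 12 of 16 genes below 0 in exponential and 11 in chronic. The acetylation genes had -0.13 in exponential and -0.24 in chronic, with 8 and 9 of 12 below 0 in that order. For the DNA methylation genes the medians were -0.14 in exponential and -0.19 in chronic (4 and 3 of 6 below 0), and for the remodeling genes 0.01 in exponential and 0.03 in chronic (3 and 2 of 7 below 0), both of which turned negative with cyclic loess. With the mean over all rows of each gene, the DNA methylation median was 0.0005 in exponential and stayed at -0.19 in chronic arrays. Over all genes the medians were 0.0067 in exponential and -0.0017 in chronic arrays, with 48.3% and 50.3% below 0. Members below 0 numbered 27 of 41 in exponential and 25 of 41 in chronic arrays. Without exponential replicate 4 the exponential medians were -0.14, -0.14, -0.16 and 0.02 for histone methylation, acetylation, DNA methylation and remodeling. These are descriptions with no test.

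Array by array, the class medians of the difference from the wild-type mean were set against the wild-type range. Over all 41 members the median ran from -0.28 to 0.0075 in exponential and -0.26 to -0.0007 in chronic arrays, against -0.0315 to 0.0836 in wild type, and over all genes from -0.0199 to 0.0159 in exponential and -0.0263 to 0.0201 in chronic, against -0.0284 to 0.0199 in wild type. Both sets overlapped between the groups. The acetylation median ran from -0.35 to -0.05 over exponential arrays and from -0.42 to -0.08 over chronic arrays, against -0.04 to 0.09 over wild-type arrays. For histone methylation the ranges were -0.26 to 0.01 in exponential and -0.35 to -0.05 in chronic, against -0.04 to 0.05 in wild type. For DNA methylation they were -0.25 to 0.22 in exponential and -0.38 to -0.23 in chronic, against -0.05 to 0.01 in wild type. In these 3 classes no chronic array reached the wild-type range, nor did any exponential array for acetylation. For DNA methylation the gap was wider, from -0.2337 on chronic replicate 2 to -0.0507 on wild-type replicate 3. For acetylation and histone methylation the gaps were small. The nearest values were -0.049 on exponential replicate 4 against -0.0435 on wild-type replicate 2 for acetylation, and -0.0487 on chronic replicate 2 against -0.035 on wild-type replicate 2 for histone methylation. Wild-type arrays are set against their own mean, which draws their medians toward 0, so these gaps are a description with no test. The remodeling median overlapped, at -0.07 to 0.17 in exponential, 0.04 to 0.09 in chronic and -0.14 to 0.23 in wild type.

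**Figure D2:**
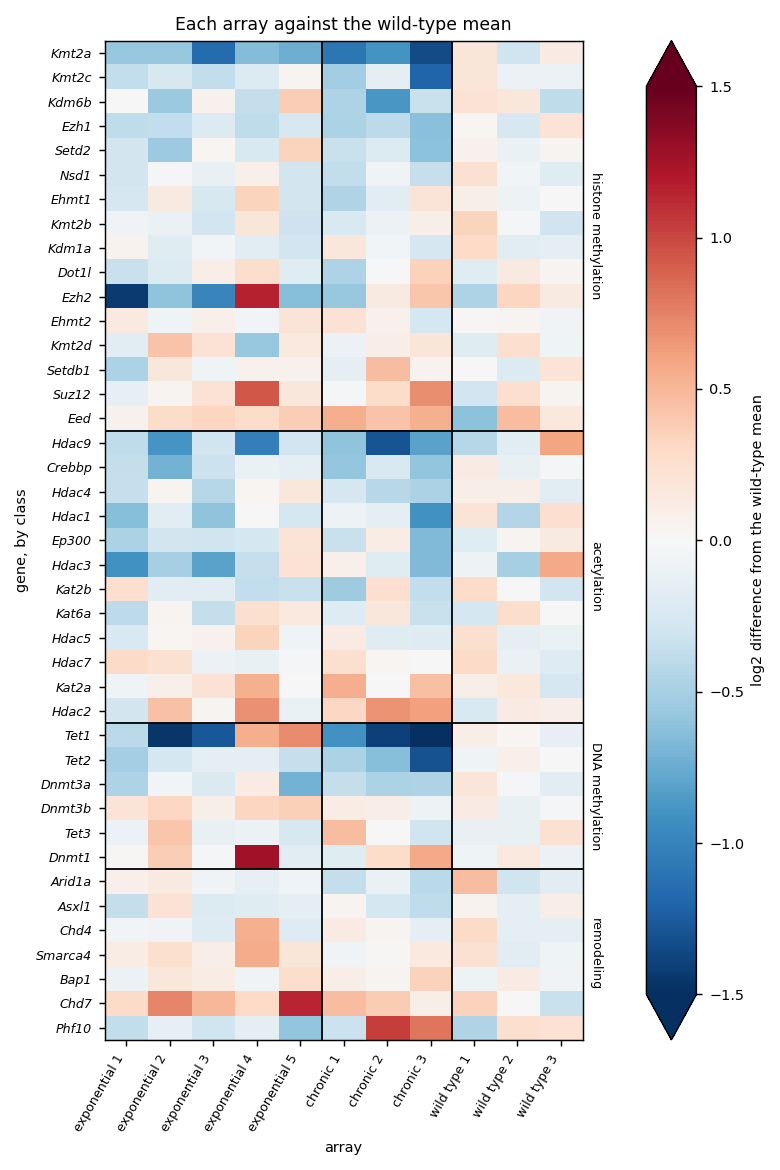
Difference of each array from the wild-type mean (colour, log2, saturated beyond 1.5 in either direction) for the 41 genes by class (rows) over the exponential, chronic and wild-type arrays (columns). Kmt2a, Ezh1, Tet2, Crebbp and Hdac9 are below the wild-type mean on each of the 8 leukemia arrays, whereas Ezh2, Suz12 and Dnmt1 are highest on exponential replicate 4.

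The promoters of 5 members are shown. Kmt2a and Tet1 were called against wild type. Ezh2, Suz12 and Dnmt1 had the highest Pearson's r with the level of cell-cycle genes over the leukemia arrays, as described further on. Windows of 300 bases (250 before to 50 after a start site) come from RefSeq, assembly GRCm38.p6, which held an entry for 34 of the 41 members. Capitals mark GC boxes, GGGCGG on either strand, in the first 2 sequences and, in the next 3, the E2F-type letters TTTGGCGC, TTTGCCGC, TTTCGCGC or TTTCCCGC on either strand. GC boxes are bound by Sp1-type factors and the second motif by E2F factors, regulators of cell-cycle genes. Each motif was searched separately and matches of one may share bases with the other.
Kmt2a, chr9:44881240-44881539, minus strand: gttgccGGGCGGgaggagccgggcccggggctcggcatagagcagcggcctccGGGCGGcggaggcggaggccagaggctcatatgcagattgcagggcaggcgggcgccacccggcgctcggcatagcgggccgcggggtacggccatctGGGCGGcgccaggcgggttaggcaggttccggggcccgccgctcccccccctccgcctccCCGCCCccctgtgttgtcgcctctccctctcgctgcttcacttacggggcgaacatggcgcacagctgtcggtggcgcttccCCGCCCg
Tet1, chr10:62887275-62887574, minus strand: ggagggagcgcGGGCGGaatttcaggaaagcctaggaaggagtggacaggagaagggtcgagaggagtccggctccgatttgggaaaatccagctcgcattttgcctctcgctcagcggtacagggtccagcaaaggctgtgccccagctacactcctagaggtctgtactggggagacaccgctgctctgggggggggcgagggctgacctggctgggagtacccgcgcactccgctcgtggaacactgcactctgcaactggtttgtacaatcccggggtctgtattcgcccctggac
Ezh2, chr6:47594981-47595280, minus strand: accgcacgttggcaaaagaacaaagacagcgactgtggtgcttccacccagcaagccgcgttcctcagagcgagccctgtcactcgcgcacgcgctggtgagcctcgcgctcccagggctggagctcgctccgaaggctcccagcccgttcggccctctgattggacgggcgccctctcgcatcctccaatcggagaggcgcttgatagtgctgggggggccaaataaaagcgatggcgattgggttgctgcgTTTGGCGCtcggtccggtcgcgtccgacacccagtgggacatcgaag
Suz12, chr11:79992856-79993155, plus strand: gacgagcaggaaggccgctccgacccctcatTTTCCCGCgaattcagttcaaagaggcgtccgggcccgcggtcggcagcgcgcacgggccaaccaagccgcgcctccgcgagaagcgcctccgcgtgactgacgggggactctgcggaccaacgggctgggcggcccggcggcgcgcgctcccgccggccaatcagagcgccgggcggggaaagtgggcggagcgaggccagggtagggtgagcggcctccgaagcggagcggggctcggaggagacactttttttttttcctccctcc
Dnmt1, chr9:20952574-20952873, minus strand: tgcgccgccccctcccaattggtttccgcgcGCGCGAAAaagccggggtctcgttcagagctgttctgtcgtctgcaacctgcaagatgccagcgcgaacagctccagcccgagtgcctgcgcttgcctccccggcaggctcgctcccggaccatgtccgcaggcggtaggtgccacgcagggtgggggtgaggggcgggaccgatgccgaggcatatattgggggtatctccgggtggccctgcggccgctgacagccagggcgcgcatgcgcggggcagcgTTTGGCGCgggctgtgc

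Kmt2a had 5 GC boxes in its window and Tet1 had 1. Such letters stood in the window of 27 of the 34 members with an entry (79.4%), of 27 of 33 cell-cycle genes (81.8%) and of 38.2% of all 27025 genes of the RefSeq table, and in 35.7% of its 32851 windows. The E2F-type letters began 3 bases after the start site in Ezh2, 219 bases before it in Suz12, and 219 bases before and 33 bases after it in the Dnmt1 window, 1 of 3 annotated for that gene. No other Dnmt1 window held these letters. They were found in 5 members (14.7%), the others being Kat2a and Arid1a, in 6 of 33 cell-cycle genes (18.2%), and in 2.6% of all genes (2.26% of windows). Hdac2, Ehmt1 and Dot1l also had an unadjusted exact permutation p under 0.05 for that correlation, and their windows held no such letters. Kmt2b, which did too, had no entry. Members had a median of 32.5 CpG dinucleotides in the richest window of each gene, against 8 over all genes. A match is a description of the letters and not of binding, and the motifs were chosen with the expression values known.

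Among the histone methylation genes, Kmt2a lay below wild type on all leukemia arrays. This methyltransferase keeps developmental genes active and is a target of translocations in acute leukemia. It read 6.18, 6.18, 5.60, 6.10 and 6.02 on exponential replicates 1 to 5 and 5.66, 5.85 and 5.41 on the chronic arrays, against 6.93, 6.45 and 6.87 on the wild-type arrays. Neither leukemia phase overlapped with wild type, and exponential replicate 4 sat among the other exponential arrays. All leukemias together averaged 5.87 against 6.75 in wild type, a fall of 1.83-fold (log2 difference -0.87, SE 0.18; limma adjusted p = 0.0433). In chronic arrays the mean was 5.64 ± 0.22 against 6.75 ± 0.26 in wild type (SD, n = 3 each), with a log2 difference of -1.11 (SE 0.18) that missed the threshold at a limma adjusted p of 0.0553. Exponential arrays averaged 6.02 ± 0.24 (SD, n = 5), with a log2 difference of -0.73 (SE 0.17) and a limma adjusted p of 0.119, or -0.75 and 0.0894 without replicate 4. The call on all leukemias rested on single arrays, since it held in 3 of the 11 fits that left out 1 array (chronic replicate 3, exponential replicate 1 or exponential replicate 4), and the adjusted p was between 0.0501 and 0.257 in the other 8.

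Kmt2c and Kmt2d, a pair of related methyltransferases that act at enhancers, read differently from each other. Kmt2c read 5.81, 5.94, 5.81, 5.98 and 6.23 on the exponential arrays and 5.66, 6.04 and 4.98 on the chronic arrays, against 6.37, 6.09 and 6.09 in wild type. All chronic arrays were below all wild-type arrays, chronic replicate 3 by far the most, while exponential replicate 5 reached into the wild-type range. The log2 difference was -0.23 in exponential (SE 0.12; limma adjusted p = 0.623) and -0.63 in chronic arrays (SE 0.26; limma adjusted p = 0.417), and -0.34 in chronic without that array. Kmt2d read 5.64, 6.24, 6.02, 5.23 and 5.96 in exponential and 5.72, 5.91 and 5.98 in chronic, against 5.62, 6.06 and 5.74 in wild type. The 3 groups overlapped throughout, with log2 differences from wild type of 0.01 in exponential and 0.06 in chronic arrays, signs that turned under other processing. Kmt2b, the close relative of Kmt2a, differed from wild type by -0.11 in exponential and -0.07 in chronic arrays on the log2 scale.

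Of the PRC2 subunits none was called in any comparison. Ezh1, the catalytic subunit typical of resting cells, read 3.60, 3.62, 3.78, 3.60 and 3.75 in exponential and 3.52, 3.59 and 3.36 in chronic, against 4.02, 3.75 and 4.19 in wild type. Chronic arrays were all below wild type, and among exponential arrays only replicate 3 reached above the lowest wild-type array. The log2 differences were -0.32 in exponential (SE 0.12; limma adjusted p = 0.379) and -0.50 in chronic arrays (SE 0.15; limma adjusted p = 0.251). Between the phases, every exponential array was above every chronic array, where 2.3% of all genes were, with a log2 difference of 0.18 (SE 0.10; limma adjusted p = 0.821).

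Ezh2, the catalytic subunit that predominates in dividing cells, depended on exponential replicate 4. It read 5.16, 6.00, 5.60, 7.76 and 5.95 in exponential and 6.03, 6.74 and 7.01 in chronic, against 6.14, 6.92 and 6.73 in wild type. Replicate 4 was the highest array of all, and the other 4 exponential arrays were below every chronic and every wild-type array. With all 5 arrays exponential differed from wild type by -0.50 on the log2 scale (SE 0.50; limma adjusted p = 0.83). Without replicate 4 the difference was -0.92 against wild type (SE 0.24; limma adjusted p = 0.122) and -0.91 against chronic (SE 0.27; limma adjusted p = 0.603), both short of the threshold. Chronic and wild type were level, at 6.59 ± 0.51 and 6.60 ± 0.41 (SD, n = 3 each).

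The other PRC2 subunits, Eed and Suz12, were not lower than wild type on average. Eed read 6.35, 6.56, 6.61, 6.56 and 6.65 in exponential and 6.84, 6.72 and 6.82 in chronic, against 5.67, 6.75 and 6.44 in wild type. Exponential arrays were all below chronic arrays, where 2.25% of all genes were, with a log2 difference of -0.25 (SE 0.10; limma adjusted p = 0.79). The wild-type arrays overlapped with both phases, and a second, much dimmer Eed row had a chronic log2 difference of -0.08. Suz12 ranged from 7.27 to 8.32 in exponential and 7.37 to 8.09 in chronic, against 7.10 to 7.65 in wild type.

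The other histone methylation genes gave smaller or less even values. Setd2, which methylates histone H3 over the bodies of transcribed genes, read 5.95, 5.68, 6.26, 6.00 and 6.56 in exponential and 5.90, 6.02 and 5.61 in chronic, against 6.29, 6.13 and 6.27 in wild type. Chronic arrays were all below wild type on this row (log2 difference -0.38, SE 0.14; limma adjusted p = 0.36), but its second row of the table ran the other way, at 0.29. Kdm6b, a demethylase that removes the Polycomb mark, had log2 differences of -0.10 in exponential and -0.56 in chronic arrays, with overlapping arrays, and was named after its values were seen. Kdm1a and Nsd1, a demethylase and a methyltransferase of histone H3, and Setdb1, Ehmt1 and Ehmt2, which set silencing marks, and Dot1l, which methylates the core of the histone, had log2 differences from wild type between -0.26 and 0.13 in both phases. The arrays of these 6 genes overlapped between the groups.

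**Figure D3:**
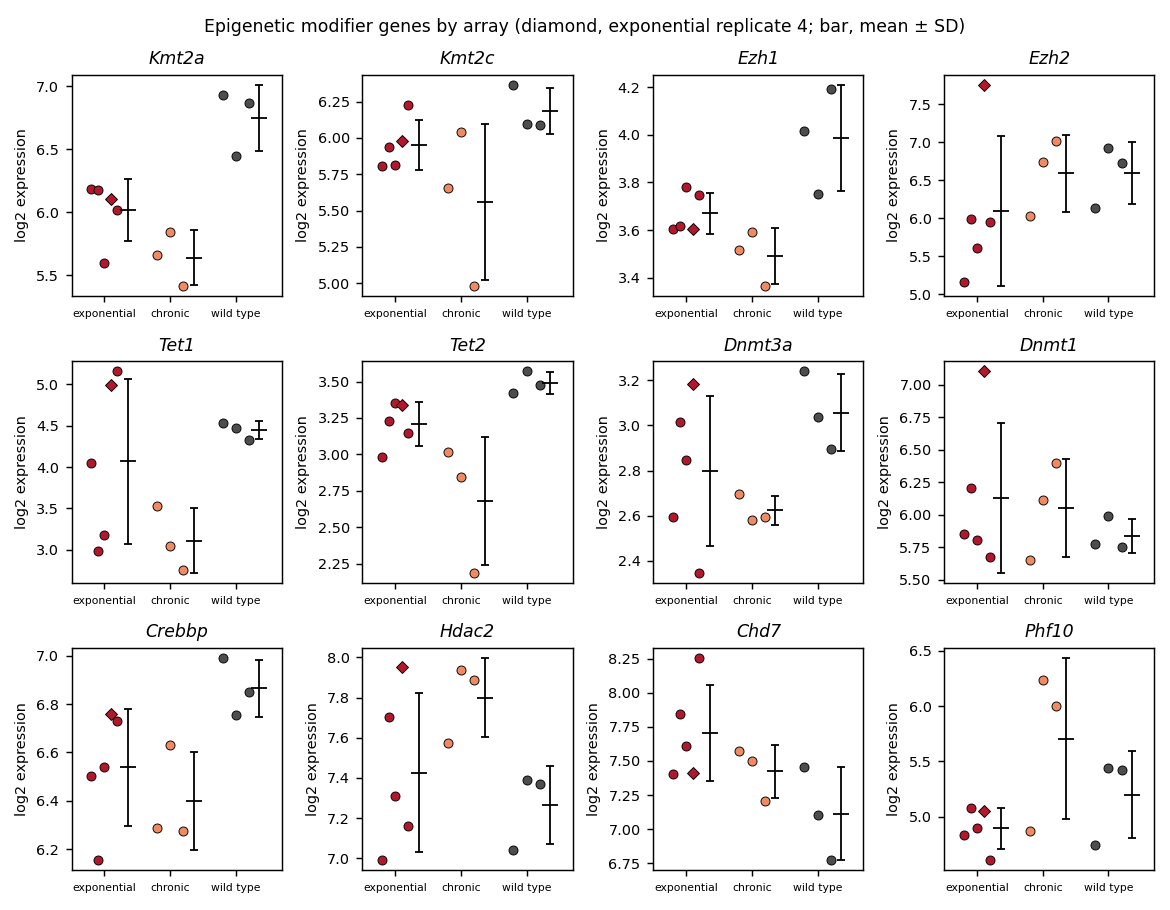
Log2 expression of 12 members on each array, in exponential, chronic and wild-type groups from left to right, with the mean and SD as a bar beside the points and exponential replicate 4 as a diamond. Chronic arrays lie below wild type without overlap for Kmt2a, Kmt2c, Ezh1, Tet1, Tet2, Dnmt3a and Crebbp and above it for Hdac2, and exponential arrays lie below wild type without overlap for Kmt2a and Tet2.

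Among the DNA methylation genes, Tet1 fell in the chronic phase. Tet enzymes start the removal of DNA methylation by oxidizing methylcytosine. Tet1 read 4.04, 2.99, 3.18, 4.99 and 5.15 in exponential and 3.53, 3.05 and 2.75 in chronic, against 4.54, 4.48 and 4.33 in wild type. Chronic arrays were all below wild type, whereas the exponential arrays split, with replicates 4 and 5 above every wild-type array and replicates 1 to 3 below. In chronic arrays Tet1 averaged 3.11 ± 0.39 against 4.45 ± 0.11 in wild type (SD, n = 3 each), a fall of 2.52-fold (log2 difference -1.34, SE 0.20; limma adjusted p = 0.0452). Exponential arrays averaged 4.07 ± 1.00 (SD, n = 5), with a log2 difference of -0.38 (SE 0.48; limma adjusted p = 0.877), or -0.61 and 0.712 without replicate 4. Against chronic the exponential difference was 0.96 (SE 0.50; limma adjusted p = 0.821). The chronic call held without chronic replicate 1 (adjusted p = 0.0208) and was lost on leaving out any other of the 6 arrays, with adjusted p between 0.0557 and 0.165. The other 2 Tet1 rows had chronic differences of -0.32 and -0.03, and the mean over its 3 rows gave -0.56 (adjusted p = 0.18).

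Tet2, which is often mutated in T-cell lymphomas, was below wild type on each leukemia array. It read 2.98, 3.23, 3.35, 3.34 and 3.15 in exponential and 3.01, 2.85 and 2.19 in chronic, against 3.42, 3.57 and 3.48 in wild type. Neither phase overlapped with wild type, and chronic replicate 3 was the lowest. The log2 differences of -0.28 in exponential (SE 0.11; limma adjusted p = 0.419) and -0.81 in chronic arrays (SE 0.21; limma adjusted p = 0.197) missed the threshold, and the chronic difference was -0.56 without chronic replicate 3. Against chronic, exponential arrays differed by 0.53 (SE 0.18; limma adjusted p = 0.772), with exponential replicate 1 inside the chronic range. Tet3 overlapped between the groups, at 2.64 to 3.28 in exponential and 2.58 to 3.34 in chronic, against 2.76 to 3.10 in wild type, while its second row was above wild type without overlap, with log2 differences of 0.30 in exponential and 0.20 in chronic.

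The DNA methyltransferases read differently from one another. Dnmt3a, a de novo enzyme, read 2.60, 3.02, 2.85, 3.18 and 2.34 in exponential and 2.70, 2.58 and 2.60 in chronic, against 3.24, 3.04 and 2.90 in wild type. Chronic arrays were all below wild type, and exponential arrays spread from below the chronic range into the wild-type range. The log2 differences were -0.26 in exponential (SE 0.19; limma adjusted p = 0.743) and -0.43 in chronic arrays (SE 0.13; limma adjusted p = 0.253). Dnmt3b, the other de novo enzyme, read 2.83, 2.95, 2.73, 2.96 and 3.00 in exponential and 2.75, 2.73 and 2.57 in chronic, against 2.77, 2.53 and 2.62 in wild type. Its log2 difference in exponential arrays was 0.26 (SE 0.10; limma adjusted p = 0.442), with replicate 3 inside the wild-type range. Dnmt1, which copies methylation onto newly made DNA, read 5.86, 6.21, 5.81, 7.10 and 5.68 in exponential and 5.65, 6.11 and 6.40 in chronic, against 5.78, 5.99 and 5.75 in wild type. Replicate 4 was again the highest array, and the exponential difference from wild type was 0.29 with it and 0.05 without it on the log2 scale. Dnmt3a, Dnmt3b, Tet2 and Tet3 averaged between the median, 2.30, and the upper quartile, 3.50, of all rows of an array in every group, so their differences were read at low signal. Chronic means in that range also included those of Tet1 (3.11) and, in other classes, Ezh1 (3.49), Kdm6b (2.87), Hdac4 (3.20) and Hdac9 (2.86). Those of Kmt2b (2.95), Ehmt2 (2.54), Dot1l (3.11), Hdac3 (2.95), Hdac7 (3.32) and Bap1 (2.65) were in it too, and that of Hdac5 (2.235) was below the median.

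In the acetylation class no member was called, and chronic arrays did not overlap with wild type for Crebbp, Hdac9 and Hdac4, which were lower, and Hdac2, which was higher. Crebbp, an acetyltransferase and coactivator, read 6.50, 6.15, 6.54, 6.76 and 6.73 in exponential and 6.29, 6.63 and 6.27 in chronic, against 6.99, 6.75 and 6.85 in wild type. Chronic arrays were all below wild type, and among exponential arrays only replicate 4 reached the lowest wild-type array. The log2 differences were -0.33 in exponential (SE 0.14; limma adjusted p = 0.503) and -0.47 in chronic arrays (SE 0.14; limma adjusted p = 0.265). Its paralog Ep300 had log2 differences of -0.22 in exponential and -0.29 in chronic arrays, with overlapping arrays. Hdac2, a class I deacetylase, read 6.99, 7.70, 7.31, 7.95 and 7.16 in exponential and 7.57, 7.94 and 7.89 in chronic, against 7.04, 7.39 and 7.37 in wild type. Chronic arrays were all above wild type and the exponential arrays spread across both, with a log2 difference of 0.16 in exponential (SE 0.21; limma adjusted p = 0.886) and 0.53 in chronic arrays (SE 0.16; limma adjusted p = 0.241).

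Other deacetylases were level with wild type or below it on average. Hdac1, the partner of Hdac2 in corepressor complexes, read 6.05, 6.53, 6.09, 6.70 and 6.42 in exponential and 6.61, 6.54 and 5.78 in chronic, against 6.88, 6.24 and 6.94 in wild type. The groups overlapped, with log2 differences of -0.33 in exponential (SE 0.20; limma adjusted p = 0.683) and -0.38 in chronic arrays (SE 0.27; limma adjusted p = 0.715). Leaving out 1 array gave -0.55 to -0.20 in exponential and -0.60 to -0.12 in chronic (without wild-type replicate 2 at the low end, and without wild-type replicate 3 in exponential and chronic replicate 3 in chronic at the high end). A second Hdac1 row had 0.02 in exponential and -0.39 in chronic arrays. Hdac9, a class IIa deacetylase, read 3.38, 2.88, 3.46, 2.73 and 3.47 in exponential and 3.16, 2.46 and 2.95 in chronic, against 3.34, 3.59 and 4.36 in wild type. All chronic arrays were below wild type, and wild-type replicate 3 was the highest array. The log2 differences were -0.57 in exponential (SE 0.26; limma adjusted p = 0.513) and -0.90 in chronic arrays (SE 0.29; limma adjusted p = 0.285), or -0.28 in exponential and -0.60 in chronic without wild-type replicate 3. Hdac4, of the same class and named after its values were seen, had -0.11 in exponential and -0.38 in chronic arrays, and its chronic arrays did not overlap with wild type. Its second row, of similar brightness, had 0.37 in exponential and -0.04 in chronic arrays, and overlapped with wild type in both. The remaining genes of the class, Hdac3, Hdac5, Hdac7, Kat2a, Kat2b and Kat6a, had log2 differences between -0.47 and 0.33 with overlapping arrays in both comparisons. Kat2a, the acetyltransferase of the SAGA coactivator, had the only difference above 0.10 among these 6 in both phases, at 0.15 in exponential and 0.33 in chronic arrays.

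Remodeling genes gave no member with an unadjusted p under 0.05 in chronic arrays and 1, Chd7, in exponential arrays. Chd7, a nucleosome mover of the chromodomain family, read 7.40, 7.84, 7.61, 7.41 and 8.25 in exponential and 7.57, 7.50 and 7.20 in chronic, against 7.45, 7.11 and 6.78 in wild type. Exponential replicates 1 and 4 were within the wild-type range and replicate 5 was the highest. The log2 difference from wild type was 0.59 in exponential (SE 0.22; limma adjusted p = 0.388), 0.66 without replicate 4 (limma adjusted p = 0.229) and 0.31 in chronic arrays (SE 0.19; limma adjusted p = 0.658). Chd7 had 30 rows in the table, of which 25 were above wild type on average in exponential and 22 in chronic arrays, with median differences over the rows of 0.45 in exponential and 0.24 in chronic. The rows ran from -0.35 to 1.18 in exponential, and 26 of the 30 were highest on exponential replicate 5, while on 24 replicate 4 was the lowest exponential array. Rows of one gene measure one transcript and are not replicates.

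**Figure D4:**
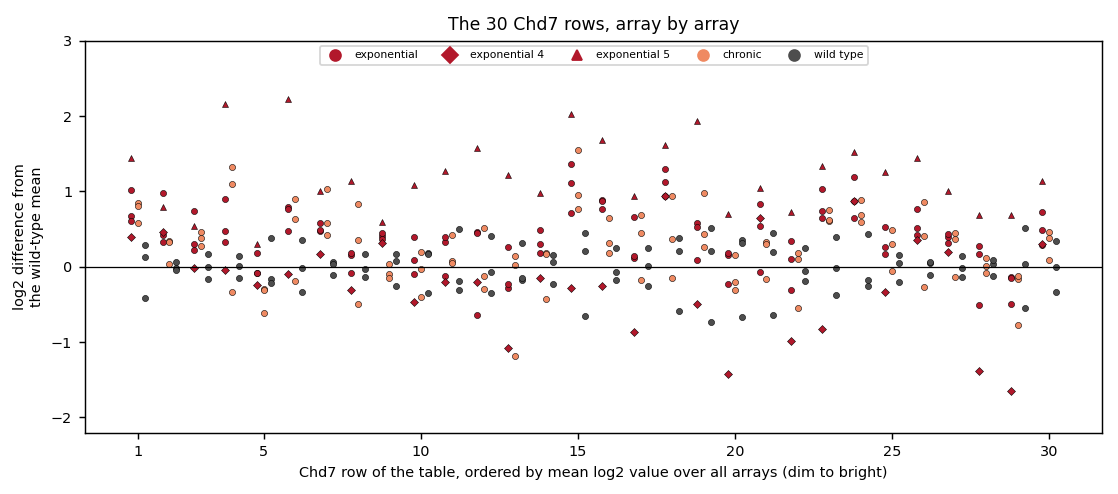
Log2 difference from the wild-type mean on each array (points) for the 30 Chd7 rows, ordered from the dimmest to the brightest over all arrays. Exponential replicate 5 (triangles) is the highest array on 26 rows, and exponential replicate 4 (diamonds) is the lowest exponential array on 24.

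Phf10 and Arid1a, subunits of SWI/SNF complexes, had the smallest p of the remodeling genes between the phases. Phf10 read 4.83, 5.08, 4.90, 5.05 and 4.61 in exponential and 4.87, 6.23 and 6.00 in chronic arrays. Chronic replicate 1 was at the exponential level and the other 2 chronic arrays were well above it, also above the wild-type arrays at 4.74, 5.44 and 5.42. The log2 difference of exponential against chronic was -0.81 (SE 0.27; limma adjusted p = 0.765), or -0.85 without exponential replicate 4. Arid1a read 5.86, 5.92, 5.73, 5.66 and 5.72 in exponential and 5.42, 5.68 and 5.38 in chronic arrays, with a log2 difference of 0.28 (SE 0.11; limma adjusted p = 0.789). Exponential replicate 4 lay just under chronic replicate 2, and the wild-type arrays, at 6.24, 5.49 and 5.62, overlapped with both phases. Smarca4, the ATPase of SWI/SNF, Chd4 of the NuRD complex, and Bap1 with its cofactor Asxl1, which remove ubiquitin from histone H2A, had log2 differences from wild type between -0.20 and 0.24 and overlapped in both comparisons.

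The second question was whether the phases differ from each other, a comparison within transgenic samples labelled as CD8-enriched. Exponential replicate 4 went against that label. The phases also differ in mean age and in the share of tumor cells, which cannot be told apart from phase here. At an unadjusted p under 0.05, 3 members were higher (Tet2, Arid1a and Kmt2a) and 2 lower (Phf10 and Eed) in exponential than in chronic arrays, where 2.75% of all genes were higher and 3.5% lower. Kmt2a differed by 0.38 (SE 0.16; limma adjusted p = 0.795), with exponential replicate 3 inside the chronic range. Without exponential replicate 4 the counts were 3 higher (Tet2, Arid1a and Kdm6b) and 3 lower (Phf10, Ezh2 and Hdac2), where 3.08% of all genes were higher and 3.99% lower. Members below 0 numbered 15 of 41, where 48.9% of all genes were. The class medians were 0.01 for histone methylation, 0.06 for acetylation, 0.19 for DNA methylation and 0.07 for remodeling on the log2 scale.

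Several of these genes are known to follow the cell cycle, so their levels were set against the median of the 38 cell-cycle genes over the 8 leukemia arrays. Ezh2 followed it most closely, with Pearson's r = 0.96 (exact permutation p = 0.000273, two-sided, adjusted over all genes 0.165) and Spearman's rho = 0.90 (exact permutation p = 0.00456, adjusted 0.65). Without the 2 arrays farthest from the median, exponential replicate 4 and chronic replicate 3, Ezh2 kept r = 0.93. For Suz12 r was 0.95 (exact permutation p = 0.00198, adjusted 0.297; rho = 0.74, exact permutation p = 0.0458, adjusted 0.884) and for Dnmt1 0.91 (exact permutation p = 0.00459, adjusted 0.363; rho = 0.57, exact permutation p = 0.151, adjusted 0.92). Without the 2 farthest arrays these became 0.56 and 0.44, so both relations rested largely on those arrays. Hdac2 had r = 0.75 (exact permutation p = 0.0248, adjusted 0.538; rho = 0.76, exact permutation p = 0.0368, adjusted 0.884) and kept 0.77 without them. Kmt2b, with r = 0.84 (exact permutation p = 0.00746, adjusted 0.402; rho = 0.57, exact permutation p = 0.151, adjusted 0.92), and Ehmt1, with r = 0.79 (exact permutation p = 0.0127, adjusted 0.455; rho = 0.55, exact permutation p = 0.171, adjusted 0.92), had 0.27 and 0.15 without them, in that order. Dot1l had r = 0.75 (exact permutation p = 0.0293, adjusted 0.549) and rho = 0.55 (exact permutation p = 0.171, adjusted 0.92), with r = 0.25 without them. The correlation was computed for each of the 19937 genes, 7 of the 41 members and 7.96% of all genes had an unadjusted exact permutation p under 0.05, and 0 genes passed adjustment. With 5 exponential and 3 chronic arrays, r was not computed within either phase.

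**Figure D5:**
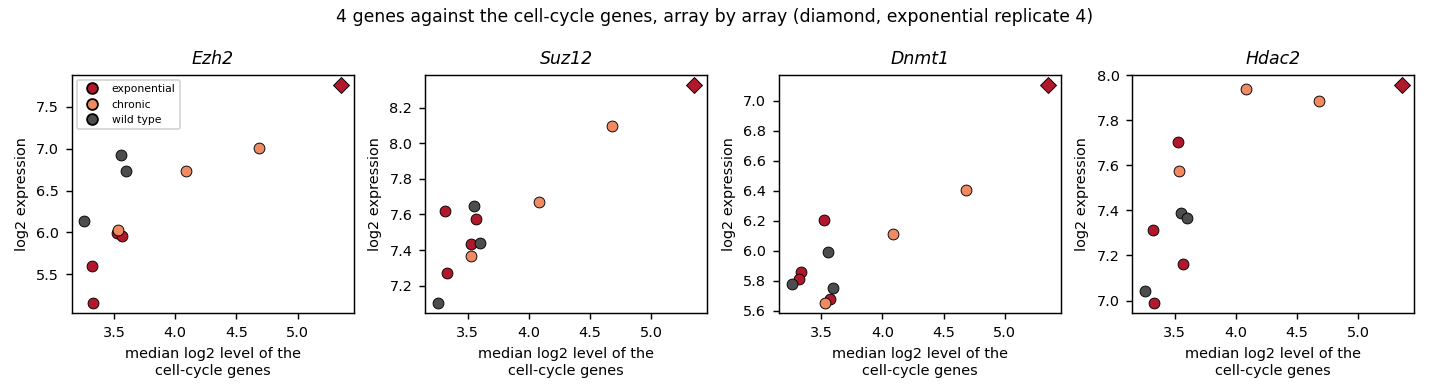
Log2 expression of Ezh2, Suz12, Dnmt1 and Hdac2 (vertical) against the median log2 level of 38 cell-cycle genes (horizontal) on each exponential, chronic and wild-type array. Exponential replicate 4 (diamond, at 5.35) and chronic replicate 3 (at 4.68) lie farthest right, and Ezh2 rises with the cell-cycle level among the other leukemia arrays too (r = 0.93).

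Of the 38 cell-cycle genes 0 were called in any comparison by limma. In chronic arrays 36 of 38 were above wild type with a median log2 difference of 0.47, and in exponential arrays 30 of 38 were, with a median of 0.23. Without exponential replicate 4 the exponential count was 14 of 38, with a median of -0.10. At an unadjusted p under 0.05, 10 were higher in chronic arrays (6.36% of all genes) and 3 in exponential arrays (4.79%), and without exponential replicate 4, 3 were higher (5.89%) and 3 lower (5.4%) in exponential. In exponential against chronic 30 of 38 were below 0, with a median of -0.20 and 0 at an unadjusted p under 0.05. Without exponential replicate 4 all 38 were below 0, with a median of -0.47, and 15 had an unadjusted p under 0.05 (3.99% of all genes were lower). The part of the cell-cycle level in the values of Ezh2, Suz12, Dnmt1 and Hdac2 was not tested.

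Beyond the 41 members, 174 other measured genes of the same machinery were read from 4 lists. In exponential against wild type 0 were called higher and 2 lower (0.416% of all genes were called), and in chronic against wild type 0 were called in either direction (0.456%). At an unadjusted p under 0.05, 9 were higher and 19 lower in exponential (4.79% and 4.99% of all genes), and 14 were higher and 19 lower in chronic (6.36% and 4.8%). Without exponential replicate 4 1 more gene was called in exponential, Mbd2, a reader of methylated DNA, which was higher. In all leukemias against wild type without that array, Pcgf6, from the list of other histone methylation genes, was also called higher. Chd9, a chromodomain remodeler related to Chd7, read 4.87, 4.76, 5.03, 4.90 and 4.84 in exponential and 4.29, 4.54 and 4.93 in chronic, against 5.58, 5.70 and 5.57 in wild type. Every leukemia array was below every wild-type array, and Chd9 fell in exponential (log2 difference -0.74, SE 0.09; limma adjusted p = 0.0141) with a larger difference but no call in chronic arrays (-1.03, SE 0.17; limma adjusted p = 0.0641). Supt20, a subunit of the SAGA acetyltransferase complex, read 6.36, 6.20, 6.59, 6.43 and 6.40 in exponential and 6.49, 6.49 and 6.32 in chronic, against 7.20, 6.88 and 7.25 in wild type. It too was lower on every leukemia array and fell in exponential (log2 difference -0.71, SE 0.12; limma adjusted p = 0.0493), with -0.68 (SE 0.14; limma adjusted p = 0.106) in chronic arrays. Both calls held without exponential replicate 4 (adjusted p = 0.0138 for Chd9 and 0.0402 for Supt20), and both genes were called lower in all leukemias against wild type.

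Of the other genes with the smallest p-values, Baz2a and Baz2b are bromodomain proteins of remodeling complexes. Baz2b had a log2 difference of -1.04 in chronic against wild type (SE 0.21; limma adjusted p = 0.102), and Baz2a had -0.47 in exponential against wild type (SE 0.10; limma adjusted p = 0.0875). Kat6b, an acetyltransferase related to Kat6a, had a limma adjusted p of 0.0405 in all leukemias against wild type at a log2 difference of -0.49 (SE 0.10), under the fold threshold. In exponential against chronic 0 of the 174 were called, and the smallest p-values were those of Smyd3, a methyltransferase, at 0.47 (limma adjusted p = 0.742), Hdac8, a class I deacetylase, at 0.37 (limma adjusted p = 0.765), and Sap18, a deacetylase complex subunit, at -0.59 (limma adjusted p = 0.772). The median log2 difference over the 174 genes was -0.02 in exponential and -0.03 in chronic arrays against wild type.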

How the data were processed

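Expression was measured in 11 samples (5 exponential, 3 chronic, 3 wild type) with the whole-transcript array Mouse Gene 1.0 ST of Affymetrix. The authors used the affy package (version not given in the sources used here) for RMA background correction and quantile normalization and deposited log2 values. The table had 34760 rows, of which 21640 carried 1 gene symbol, 1321 several and 11799 none. Where a gene had more than 1 row (954 genes), its brightest row on average was kept, which left 19937 genes. No filter and no further normalization was applied, and no detection calls were used. Arrays have no read depth, and their number limits the precision. Within a group the arrays correlated at 0.944 to 0.969.

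Each comparison was fitted on its own arrays with limma 3.58.1 in R 4.3.3 and adjusted by Benjamini-Hochberg over all genes. Correlations and counts used Python 3.11.15, numpy 2.4.6 and pandas 2.3.3. The fits were tested on simulated data. The 41 members, the marker lists and the lists of other genes were chosen with earlier results of these data known. Array-by-array values are given for members called in any comparison, for up to 3 members per class and comparison with the smallest unadjusted p under 0.05, and for Ezh2, Kmt2c, Kmt2d, Dnmt1, Dnmt3a, Tet2, Hdac1 and Hdac2. Of other genes, values are given for those called in the main fits or for the 3 with the smallest p.

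Alternatives were 1 fit over all groups, a replicate block, leaving out the dimmest 30% or 50% of genes, cyclic loess, median centring, array weights, a robust fit with a variance trend, all rows, the mean of a gene's rows, the methods' t-test, no fold threshold, and leaving out each array.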

Additional observations from a re-analysis of the deposited data

Results flagged for a closer look

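Within the 5 exponential arrays, 1 array lay apart from the others for 3 of the 41 genes by Dixon's test (7.32%), where the same test picked out 7.68% of all genes and chance gives about 1 in 20. Kmt2a was low on exponential replicate 3, at 5.60 against 6.02 to 6.18 on the others. Tet3 was high on exponential replicate 2, at 3.28 against 2.64 to 2.79 on the others. Chd4 was high on exponential replicate 4, at 7.21 against 6.48 to 6.63 on the others.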

How the results depend on the processing

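Both calls depended on the processing, and the causes were not tested. In chronic against wild type 2 members (Kmt2a and Tet1) were called without the dimmest 30% or 50% of genes and with a variance trend, and 0 with median centring, the methods' t-test, all rows or the mean of rows. With 1 fit over all groups the called member was Kmt2a (adjusted p = 0.0305) and not Tet1 (adjusted p = 0.334). Over the other alternatives that lost the call, the adjusted p of Tet1 was 0.0529 (median centring), 0.373 (t-test), 0.164 (all rows) and 0.18 (mean of rows). In all leukemias against wild type 0 members were called by the t-test (Kmt2a adjusted p = 0.149) and with all rows (0.0819). Leaving out 1 array gave 0 to 1 called members in both comparisons.

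The labels do not say if the replicate numbers of the titles pair the samples, and the main fits did not pair them. Same-numbered arrays of different groups correlated at -0.04 to 0.18 in their deviations from the group means. Differently numbered arrays correlated at -0.23 to 0.16. The ranges overlap, but the highest values, 0.18 and 0.17, were between arrays numbered 1, so these values cannot decide whether the numbers pair samples. With the replicate block, in which exponential replicates 4 and 5 have no partner, 1 member was called in exponential against wild type (Ezh2, -1.01, adjusted p = 0.03), and Tet1 (adjusted p = 0.0155) in place of Kmt2a (0.0525) in all leukemias. The counts at an unadjusted p under 0.05 under the block were 10 in exponential against wild type, 8 in exponential against chronic and 10 in all leukemias. Under the block the exponential against chronic differences turned sign to -0.10 for Dnmt1, -0.0848 for Hdac1 and 0.10 for Kmt2d.

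Other counts at an unadjusted p under 0.05 were 3 in exponential against wild type without the dimmest 50% of genes and with a variance trend. In exponential against chronic they were 3 with 1 fit and 2 with each of those settings. Leaving out 1 array gave 1 to 8 in exponential against wild type, 1 to 8 in exponential against chronic and 3 to 9 in all leukemias. It also moved the chronic medians to between -0.21 and -0.0486 for histone methylation, -0.33 and -0.0852 for acetylation, and -0.31 and -0.17 for DNA methylation, and the remodeling median to between -0.0466 and 0.15. In exponential against wild type the medians ran from -0.157 to -0.0501 for histone methylation, -0.161 to -0.0589 for DNA methylation and -0.0581 to 0.15 for remodeling, and in exponential against chronic from -0.0295 to 0.0959 for histone methylation, -0.0651 to 0.15 for acetylation and 0.0127 to 0.16 for remodeling. With cyclic loess the remodeling median was -0.0414 in exponential and -0.0382 in chronic against wild type.

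Kmt2d turned sign with cyclic loess (-0.035 in exponential, -0.0182 in chronic and -0.0287 in all leukemias against wild type), with the mean of rows (-0.0286 in exponential, -0.058 in chronic and -0.0396 in all leukemias, 0.0294 in exponential against chronic) and with array weights (0.0288 in exponential against chronic, where Hdac1 was -0.0837). Ezh2 in chronic arrays was 0.0033 with median centring. Leaving out 1 array gave -0.23 to 0.28 for Ezh2 in chronic. For Kmt2d it gave -0.0923 to 0.16 in exponential, -0.0288 to 0.19 in chronic, -0.0616 to 0.16 in all leukemias and -0.16 to 0.0937 in exponential against chronic. In the last comparison it gave -0.17 to 0.25 for Dnmt1 and -0.21 to 0.20 for Hdac1. Dropping the fold threshold changed no count of called members. Dim members, close to the array median, are limited by their signal over background, for which no detection calls were used here.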
